A study of Homo sapiens with 20 samples.

Results

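JinB8 is a somatic mutant of the human T lymphoblast line Jurkat that lacks CD47 at the cell surface, and the RNA of JinB8 cells at 6 h was compared here with that at 1 h. The members are 6 of the 20 libraries analysed: JinB8 cells at 1 h and at 6 h, each given antibodies to CD3 and CD28 (CD3+CD28), the same antibodies with thrombospondin-1 (CD3+CD28+TSP1), or thrombospondin-1 alone (TSP1). They were chosen by their labels, so that 3 libraries at 6 h stood against 3 at 1 h, paired by treatment, and the untreated JinB8 library at 1 h was left out because no untreated library was analysed at 6 h. The model was fitted to all 20 libraries, which also held JinB8 cells at 3 h, wild-type (WT) Jurkat cells given the same treatments for the comparison of the lines, and the untreated library of each line at 1 h, whose values are given beside some genes. TSP1 was added to the cells at 1 µg/ml. The antibodies were coated on the plates before the cells were added, the CD28 antibody at 4 µg/ml in the coating solution. The serum-free medium contained hydrocortisone, insulin, transferrin and selenium. JinB8 is 1 mutant line, each treatment and time was sequenced once, and the 3 treatments therefore stood in for replicates. The p-values below rest on the spread between libraries that the fit of all 20 leaves, which includes WT cells and the 3 h libraries. They do not rest on repeats of 1 treatment. Hours in the treatment medium cannot be told apart from any difference between the harvests at 1 h and 6 h.

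CD47 is a membrane receptor for thrombospondin-1, a secreted matrix glycoprotein, and for the SIRP proteins of other cells. Signaling from the T cell receptor, which CD3 antibodies engage, and from CD28 induces immediate early genes within the first hour, followed by genes for growth, biosynthesis and cytokines. Transcripts of immediate early genes are short-lived, so their level falls soon after the stimulus or the handling that induced them has passed.

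CD47 mRNA remained detectable in JinB8 cells, which checks the line by level and not by the mutation itself. In CPM, the count scaled to the library total, it stood at 164 with CD3+CD28, 152 with CD3+CD28+TSP1 and 165 with TSP1 at 1 h, and at 144, 141 and 145 at 6 h. The 6 h libraries all lay below the 1 h libraries, as for 33.6% of all genes tested. CD47 fell by 0.16 ± 0.06 (SE) on the log2 scale (edgeR adjusted p = 0.0463). This call was lost with voom, with another scaling and with most single libraries left out (adjusted p 0.0443 to 0.282), and the sign turned with offsets for GC content and transcript length. In WT cells the mean was 355 ± 18.0 CPM (SD, n = 3) at 1 h. RAG1, a recombinase of developing lymphocytes, averaged 6.81 CPM in JinB8 and 263 CPM in WT cells at 1 h, so that the lines were also apart in genes other than CD47. T cell identity was present throughout, with CD3D, a subunit of the T cell receptor complex, between 354 and 365 CPM at 1 h and between 502 and 532 CPM at 6 h. Of 16 T lymphoblast markers, 10 were called higher at 6 h and 2 lower, beside 26.0% and 27.0% of all genes tested. The 2 were TRAC (22 to 26.2 CPM at 1 h and 15 to 17 CPM at 6 h) and CD5 (48 to 55.3 and 37.2 to 40.2 CPM).

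The 10 JinB8 libraries held between 16107921 and 28525524 expected counts, and the 6 compared libraries between 22995477 and 24989562. Several defining markers of other cell types were near 0, as LYZ of myeloid cells (at most 0.327 CPM) and EPCAM of epithelium (at most 0.352 CPM), but others were not, and some moved with time. The B cell gene CD79A was at 5.01 to 6.33 CPM at 1 h and 8.31 to 9.97 CPM at 6 h, NKG7 of natural killer cells at 2.85 to 3.10 and 5.62 to 6.38 CPM, and CD68 of macrophages at 3.94 to 5.29 and 0.309 to 0.509 CPM. The summed level of the 6 B cell markers went from 8.89 to 10.1 CPM at 1 h to between 12.7 and 14.2 CPM at 6 h. Of the 3 of them that were tested, 1 rose and 1 fell. BLNK went down, from 0.98 to 1.11 CPM at 1 h to between 0.46 and 0.58 CPM at 6 h. The sum of the 8 myeloid markers went from 4.82 to 6.72 CPM to between 1.04 and 1.74 CPM. CD68 made up most of that sum at 1 h, and each other member stayed at or below 0.572 CPM. Among these, CD14 and FCGR3A ranged higher at 6 h and ITGAM lower. The part of these markers in other results was not tested. The summed level of the 6 fibroblast markers ranged from 10.8 to 12.2 CPM at 1 h and from 7.70 to 13 CPM at 6 h. Within that sum PDGFRB went from 6.73 to 8.93 CPM at 1 h to between 3.17 and 4.23 CPM at 6 h. COL1A1 went the other way, from 3.18 to 3.90 CPM to between 4.40 and 5.45 CPM, and 1 of the 2 tested members was called lower. The 2 libraries with CD3 and CD28 antibodies at 6 h stood apart in a few transcripts. THBS1, the gene of thrombospondin-1 itself, was at 9.24 and 9.69 CPM in them, against 0.176 CPM with TSP1 at 6 h and between 0.163 and 1.35 CPM at 1 h. COL1A2, a fibrillar collagen gene, was at 1.14 and 1.63 CPM in the same libraries and at 0 in the library with TSP1 at 6 h. HBG2, a fetal globin gene nearly identical to HBG1 and so uncertain by itself, was at 0.044 and 0.0407 CPM in them, against 3.41 CPM with TSP1 at 6 h and between 3.72 and 10.9 CPM at 1 h. In WT cells THBS1 was between 6.87 and 11.8 CPM in 7 of 10 libraries and between 0.168 and 0.653 CPM in the others, and it went from 11.8 and 11.2 CPM at 1 h to 0.308 and 0.653 CPM at 6 h with the antibody treatments and from 0.168 to 6.87 CPM with TSP1. The direction with the antibody treatments was thus opposite in the 2 lines. The JinB8 library with TSP1 at 6 h was like the JinB8 libraries at 1 h in these transcripts, and the time comparison was also run with TSP1 alone. With a term for the 9 libraries with THBS1 above 5 CPM in the fit, chosen after seeing the data, 3636 genes rose and 3768 fell in JinB8 from 1 h to 6 h. The change of THBS1 from 1 h to 6 h did not pass (log2 fold change 3.20 ± 1.37, adjusted p = 0.0643). Among the 3 h libraries, the one with CD3+CD28+TSP1 had the lowest total and lay apart in a principal component analysis, and leaving it out raised the number of genes called.

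Over these hours most listed immediate early (18 of 23), hypoxia (13 of 16) and mitotic genes (27 of 30) fell in JinB8 cells, and most genes of ribosome production (50 of 56) and 14 of 24 of sterol synthesis and uptake rose. Of 16327 genes tested, 8646 (53.0%) passed an adjusted p of 0.05 in edgeR's quasi-likelihood test, of which 4237 (26.0% of those tested) rose and 4409 (27.0%) fell. A rise of at least 2-fold was seen for 1264 of the called genes and a fall of at least 2-fold for 895. The median log2 fold change over all genes tested was -0.00343, close to 0. Correlation between libraries (Pearson, across genes) was 0.9928 to 0.9948 within 1 h, 0.9937 to 0.9944 within 6 h and 0.9631 to 0.9707 between them. The 3 h mean lay between those of 1 h and 6 h for 68.6% of the genes that rose and 74.6% of those that fell.

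With TSP1 alone, which is 1 library at each time, 2035 genes rose and 2152 fell, under the counts of the whole comparison by over 1.5 times. The spread in this fit comes from the other libraries, and the lone libraries are assumed to vary like them. Of the 4237 genes that rose, 4237 had the same sign with TSP1 alone and 2002 (47.3%) were called there too. For the 4409 that fell, 4402 had the same sign and 2121 (48.1%) were called. These shares describe genes chosen with those same libraries in the fit.

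Genes that rose and fell differed in composition. The median GC content of their transcripts was 52.9% for genes that rose, 44.4% for genes that fell and 48.9% for genes not called. In the fifth of genes with the lowest GC content 16.5% rose and 42.0% fell, and in the fifth with the highest 41.0% rose and 12.6% fell. The AU-rich element TATTTAT occurred in the 3' untranslated region of 27.3% of genes that rose, 44.8% of genes that fell and 33.9% of genes not called, and per kilobase of that region at 0.273, 0.365 and 0.313. GC content can also move with library preparation, and its part in the result was not tested. With offsets for GC content and length in the fit, 4398 genes rose and 4404 fell.

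**Figure D1:**
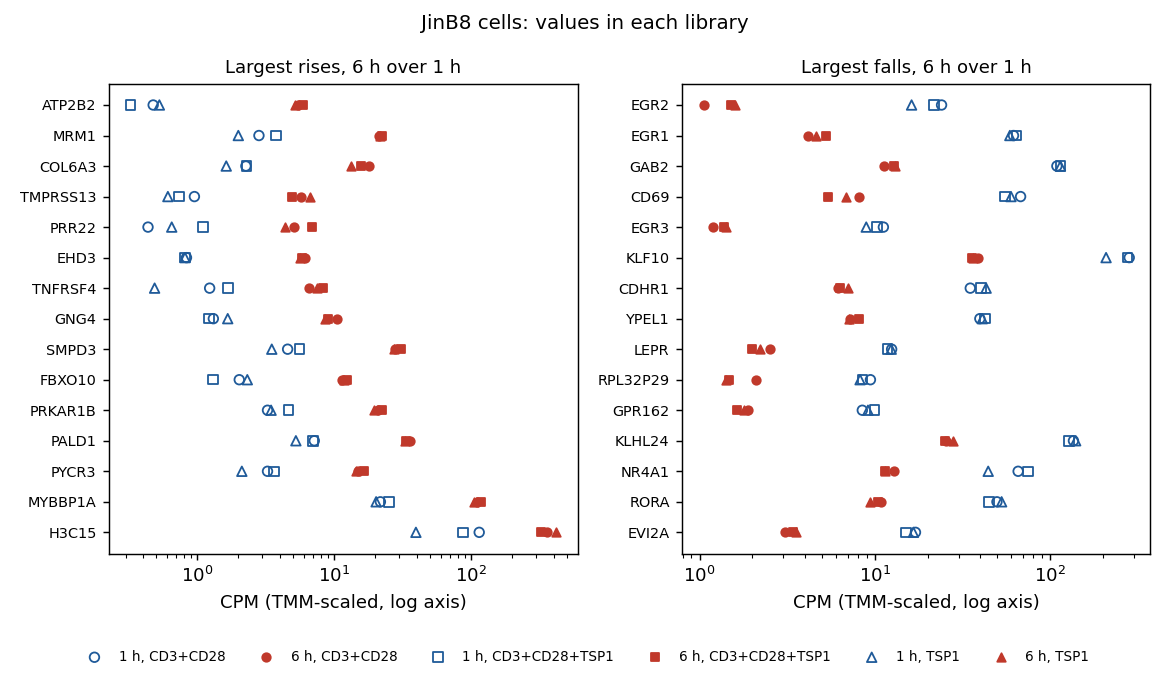
CPM in each JinB8 library (log axis) of the 15 genes with the largest rise (left) and the 15 with the largest fall (right); open symbols are 1 h, filled symbols 6 h, and the shape gives the treatment. For each of the 30 genes the 3 libraries at 6 h lie on one side of the 3 at 1 h. That holds for 32.4% (above) and 33.6% (below) of all genes tested, and these 30 were chosen for the same sign in all 3 treatments.

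Most of the 15 largest rises were of genes below 7 CPM at 1 h, with MYBBP1A and H3C15 as the exceptions. ATP2B2 (chr3:10324023-10708007), a calcium pump of the plasma membrane, stood at 0.478, 0.327 and 0.530 CPM at 1 h (CD3+CD28, CD3+CD28+TSP1 and TSP1, the order used below) and at 5.41, 5.94 and 5.15 CPM at 6 h, a 12.2-fold rise (log2 fold change 3.61 ± 0.32, adjusted p = 6.23e-07). COL6A3, a collagen VI chain, went from 2.27, 2.29 and 1.63 CPM to 18.0, 15.8 and 13.3 CPM, and at 3 h it was at 21.6, 28.7 and 14 CPM. SMPD3, a neutral sphingomyelinase, rose 6.31-fold, from 4.58, 5.60 and 3.51 CPM to 27.8, 30.7 and 27.3 CPM. The groups did not overlap for any of these, and all 6 h libraries lay above all 1 h libraries for 32.4% of all genes tested. The other large rises were of MRM1, TMPRSS13, PRR22, EHD3, TNFRSF4, GNG4, FBXO10, PRKAR1B, PALD1, PYCR3, MYBBP1A and H3C15.

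Of the 15 largest falls, 5 were of listed immediate early transcription factors (EGR1, EGR2, EGR3, NR4A1 and KLF10). EGR2, a zinc finger factor induced by T cell receptor signaling, stood at 24, 21.8 and 16.2 CPM at 1 h and at 1.06, 1.51 and 1.58 CPM at 6 h. Its log2 fold change was -3.88 ± 0.38 (SE, adjusted p = 1.24e-06). EGR1 (GRCh38 chr5:138465479-138469303) went from 61.7, 64.3 and 58.8 CPM to 4.13, 5.25 and 4.62 CPM, a 13.4-fold fall. The untreated library at 1 h held EGR1 at 55.6 CPM, close to the treated libraries at 1 h. At 3 h, EGR1 was at 28.1, 44.6 and 14.2 CPM, in between and lowest with TSP1 alone. NR4A1, an orphan nuclear receptor induced by antigen receptor signaling, fell from 65.6, 74.6 and 44.3 CPM to 12.8, 11.5 and 11.4 CPM.

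CD69, an early surface marker of activated lymphocytes, dropped from 67.7, 55.4 and 59.7 CPM to 8.14, 5.41 and 6.87 CPM. The untreated library held it at 54.2 CPM. GAB2 (chr11:78215293-78418348), an adaptor that couples receptors to the phosphatase SHP2 and to PI3 kinase, fell 9.10-fold, from 109, 114 and 114 CPM to 11.3, 12.8 and 13 CPM. Its log2 fold change of -3.19 ± 0.08 (adjusted p = 1.83e-11) had a small error beside those of EGR1 and EGR2. KLHL24, a kelch-like ubiquitin ligase adaptor, went from 136, 128 and 140 CPM to 25.4, 25.2 and 27.9 CPM, and RORA, a nuclear receptor of lymphocyte and clock programs, from 49.7, 44.7 and 52.8 CPM to 10.8, 10.4 and 9.33 CPM. The remaining large falls were of EGR3, KLF10, CDHR1, YPEL1, LEPR, GPR162, EVI2A and RPL32P29, the last being a ribosomal protein pseudogene whose reads may belong to its parent gene.

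Of the 25 immediate early transcription factors listed, 23 were tested, 18 fell, 1 rose and 4 did not pass, beside 27.0% of all genes that fell and 26.0% that rose. The median log2 fold change of the list was -0.96 beside -0.00343 over all genes. FOS, a subunit of the AP-1 factor, stood at 53.6, 55.4 and 46.6 CPM at 1 h and at 24.5, 26 and 28.9 CPM at 6 h. FOSB did not pass, with 15.4, 15 and 12.3 CPM at 1 h and 14.3, 14.4 and 13.5 CPM at 6 h (log2 fold change -0.01 ± 0.16, adjusted p = 0.948). JUN and JUNB did not pass either (adjusted p = 0.0702 and 0.302). KLF4, a Krüppel-like factor, rose from 4.94, 5.11 and 4.04 CPM to 7.92, 9.61 and 8.76 CPM.

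Of the 20 immediate early genes with a promoter at hand, EGR1 and SRF fell and held a CArG box in the 250 bases before the start. Bases further upstream were not searched. The CArG box is the core of the serum response element, which is why these genes are shown. SRF encodes the factor that binds this element. The box is in capitals in these stretches of the gene's strand (RefSeq, GRCh38.p14), chr5:138465344-138465435 on the plus strand for EGR1 and chr6:43171209-43171268 on the plus strand for SRF.
EGR1: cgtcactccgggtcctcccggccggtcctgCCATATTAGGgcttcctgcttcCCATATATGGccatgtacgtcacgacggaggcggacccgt
SRF: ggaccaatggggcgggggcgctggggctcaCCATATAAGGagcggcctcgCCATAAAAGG
SRF itself fell by 0.23 on the log2 scale. Within the 250 bases before the start, a CArG box was found in 1.27% of the genes that fell, 0.963% of those that rose and 1.01% of all tested genes with a promoter, and in 2 of 20 immediate early factors.

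Genes that restrain these signals were measured as separate lists. Of 15 ERK feedback inhibitors, 7 fell, 2 rose and 6 did not pass (median log2 fold change -0.59), beside 27.0% of all genes that fell and 26.0% that rose. DUSP5, a nuclear ERK phosphatase, went from 49.9, 53.6 and 35.9 CPM to 13.5, 15.3 and 14.6 CPM, whereas DUSP7, a cytoplasmic one, rose from 11.8, 12.9 and 10.9 CPM to 22.1, 23.5 and 21.6 CPM. Among 17 genes of NF-kB feedback, 8 fell, 1 rose and 8 did not pass. TNFAIP3, which encodes the ubiquitin-editing inhibitor A20, fell from 139, 138 and 138 CPM to 61.0, 57.8 and 53.1 CPM. TNF, the cytokine, fell from 22.1, 26.1 and 22.7 CPM to 10.7, 11.4 and 11 CPM. MCL1, a short-lived survival protein of the BCL2 family, fell 2.44-fold, from 510, 462 and 432 CPM to 197, 186 and 191 CPM. Of the 16 BCL2 family genes, 3 fell and 4 rose, beside 27.0% and 26.0% of all genes, and 2 rose without the TSP1 library at 1 h and 1 without the CD3+CD28+TSP1 library at 6 h.

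Other genes that the study names were also measured. CCR9, a homing receptor, fell from 1.47, 1.43 and 1.55 CPM to 0.660, 0.773 and 0.660 CPM, and PREX1, a Rac exchange factor, from 52.9, 61.8 and 57.8 CPM to 35.0, 36 and 35.3 CPM. RAG1 and MYCL rose by 0.62 and 0.53 on the log2 scale, with adjusted p up to 0.0659 and 0.123 in edgeR when 1 library was left out. TIGIT was too low to be tested.

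T cell activation genes moved in both directions. Of 30 listed, 19 were tested, 8 fell and 6 rose, beside 27.0% and 26.0% of all genes, and 3 rose without the CD3+CD28 library at 1 h or without the CD3+CD28+TSP1 library at 6 h. TNFRSF4, the costimulatory receptor OX40, rose from 1.23, 1.68 and 0.489 CPM to 6.55, 8.34 and 7.44 CPM, and was at 2.83 CPM in the untreated library. ICOS, another costimulatory receptor, fell from 2.75, 1.88 and 2.37 CPM to 0.572, 0.570 and 0.528 CPM. CD40LG, the ligand of CD40, changed by 0.25 ± 0.10 on the log2 scale (adjusted p = 0.0407) with overlapping groups, and without any 1 of the 6 libraries its adjusted p was 0.0637 to 0.142. In the T cell receptor complex and its proximal signaling, 10 of 19 genes rose and 5 fell (3 without the CD3+CD28 or the TSP1 library at 6 h). CD7 rose 3.93-fold, from 17, 22.1 and 13.7 CPM to 64.7, 75.7 and 64.3 CPM, with the untreated library at 31.0 CPM. The kinase gene ZAP70 went from 80.0, 94.9 and 72.7 CPM to 161, 173 and 165 CPM. CD4, the coreceptor, fell 3.06-fold. LCK and CD3E did not pass (adjusted p = 0.93 and 0.861).

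Ribosome production had the highest share of risers among the lists with at least 10 tested genes. All 56 genes listed were tested, and 50 rose, 1 fell and 5 did not pass, beside 26.0% of all genes that rose and 27.0% that fell. The median log2 fold change of the list was 1.01. MYC, the transcription factor that drives many of these genes, rose 3.44-fold, from 50.9, 54.9 and 48.3 CPM to 176, 181 and 173 CPM, through 91.9, 84.8 and 85.3 CPM at 3 h. MYBBP1A, a nucleolar protein, went from 21.8, 25 and 20.3 CPM to 111, 117 and 106 CPM. NOP56, a core protein of box C/D particles that methylate ribosomal RNA, went from 248, 249 and 256 CPM to 575, 573 and 566 CPM, and was at 236, 184 and 247 CPM at 3 h, so that its rise fell within the later interval. UTP3 was the member that fell (by 0.58 on the log2 scale). Without the CD3+CD28 library at 1 h, 2 members fell. The same number fell with the replicate block, without the 3 h libraries and with offsets for GC content and length. Of 58 cytosolic ribosomal proteins, 10 were called higher and 1 lower, beside 26.0% and 27.0% of all genes. The 1 became 13 with the replicate block, 9 without the 3 h libraries and 0 in most fits with 1 library left out, and the 10 became 17 with voom, 5 without the CD3+CD28 or the TSP1 library at 1 h and 6 without the TSP1 library at 6 h.

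Genes of nucleotide and polyamine synthesis moved in both directions. Of 20 nucleotide synthesis genes, 12 rose and 7 fell, beside 26.0% and 27.0% of all genes, and PFAS, an enzyme of purine synthesis, went from 28.9, 37.1 and 28.9 CPM to 106, 103 and 97.1 CPM. Of 9 polyamine genes, 4 rose and 2 fell, beside the same shares, and 1 fell with the antibody treatments alone. The 2 that fell in the whole comparison were SAT1 and OAZ2, which act against polyamine accumulation. ODC1, the first enzyme of polyamine synthesis, rose 3.52-fold, from 86.7, 84.2 and 84.5 CPM to 290, 299 and 311 CPM. SRM, which makes spermidine, rose 4.92-fold, from 10.9, 12.1 and 8.24 CPM to 53.9, 53.5 and 46.0 CPM. MRM1, a mitochondrial ribosomal RNA methyltransferase, rose 7.74-fold, from 2.83, 3.76 and 2.00 CPM to 21.2, 22.2 and 21.7 CPM. Among the host genes of small nucleolar RNAs, 15 of 21 rose and 3 fell, again beside 26.0% and 27.0%.

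The E-box CACGTG, which MYC and related factors can bind, is in capitals in these upstream stretches of 3 risers, shown because their promoters hold it: chr1:11060182-11060247 on the minus strand for SRM, chr2:130342664-130342729 on the plus strand for IMP4 and chr17:51260427-51260492 on the plus strand for UTP18 (RefSeq, GRCh38.p14).
SRM: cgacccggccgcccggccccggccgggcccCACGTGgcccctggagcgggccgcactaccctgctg
IMP4: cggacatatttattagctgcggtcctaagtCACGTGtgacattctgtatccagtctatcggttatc
UTP18: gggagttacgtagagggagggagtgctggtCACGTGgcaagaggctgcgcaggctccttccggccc
The E-box was present in 10.8% of the promoters of genes that rose, 7.85% of genes that fell and 8.87% of all tested genes with a promoter, and in 5 of 48 promoters of the ribosome list (10.4%). It was in 4 of 20 promoters of the immediate early list (20%), 4 of 25 of the mitotic list (16%) and 3 of 18 of the endoplasmic reticulum list (16.7%), each above the share in the ribosome list. The other motifs searched, on both strands, were TGACGTCA, TGANTCA, TGATGCAA, the EGR motif GCGGGGGCG, the NF-kB motif, the sterol regulatory element and the heat shock element. TGACGTCA was in 3.24% of the promoters of genes that rose and 3.43% of those that fell, beside 2.94% of all.

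**Figure D2:**
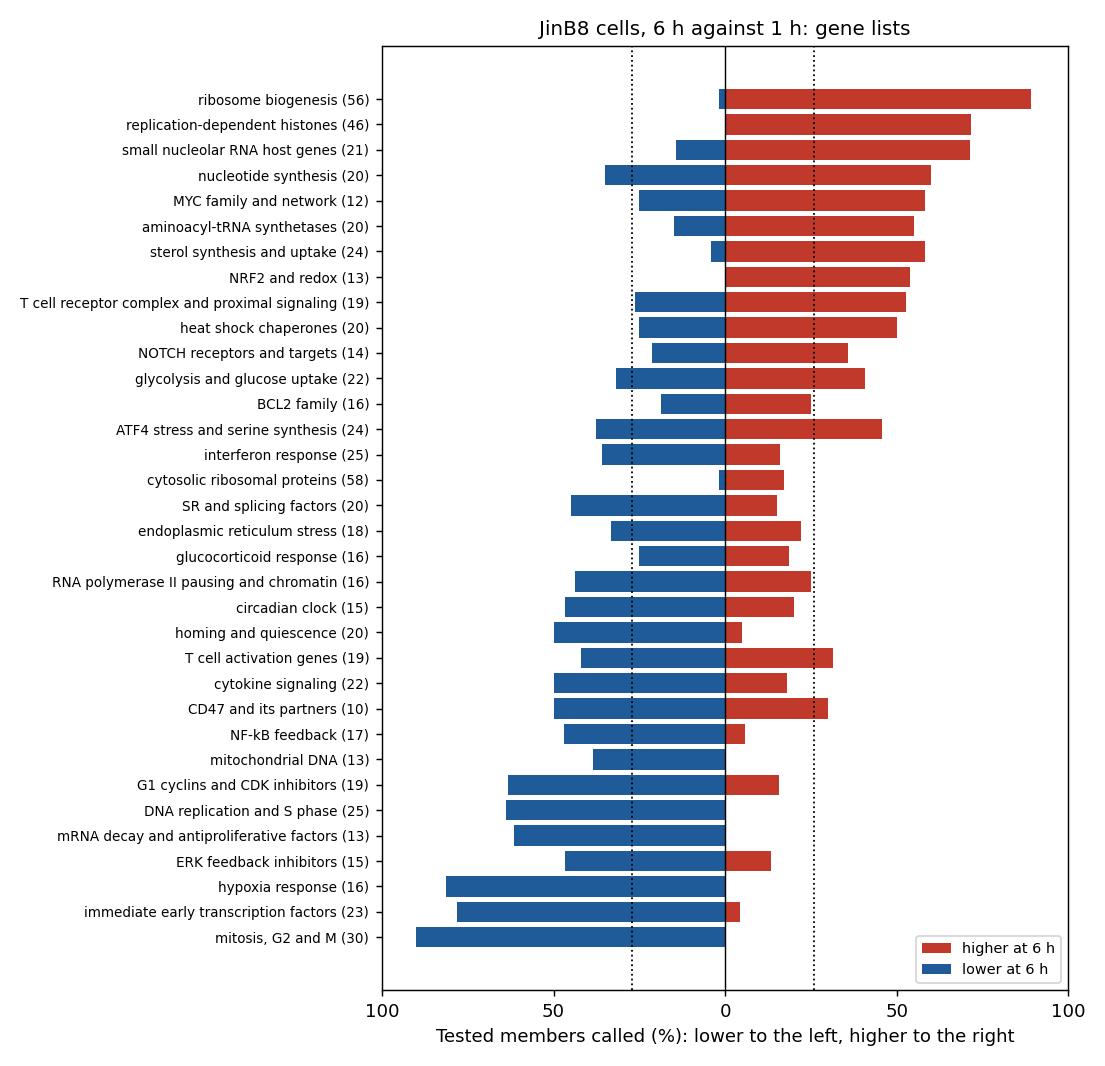
Share of tested members called higher (right) or lower (left) at 6 h in JinB8 cells for each gene list with at least 10 tested members, whose number stands in brackets; dotted lines are the shares over all 16327 genes. Ribosome biogenesis (50 of 56 higher) and mitosis (27 of 30 lower) stand at the ends.

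Cell division genes fell. Of 30 genes of mitosis and the G2 and M phases, 27 fell, none rose and 3 did not pass, beside 27.0% of all genes that fell and 26.0% that rose. The median log2 fold change of the list was -1.03. DLGAP5, a spindle assembly factor, went from 229, 215 and 219 CPM to 79.0, 69.3 and 84.4 CPM. CENPF, a kinetochore protein, went from 1215, 1154 and 1237 CPM to 499, 415 and 515 CPM. TOP2A, the topoisomerase that untangles chromosomes before they part, fell 2.09-fold, from 1036, 958 and 1025 CPM to 480, 454 and 511 CPM. The members that did not pass were CDC20, PLK1 and CCNB1. The summed level of the list was 6803 to 7194 CPM at 1 h, 4227 to 5492 CPM at 3 h and 3371 to 3710 CPM at 6 h. In bulk RNA, fewer cells in these phases and less of the RNA per cell cannot be told apart.

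Of 25 genes of DNA replication and S phase, 16 fell and none rose (median log2 fold change -0.46), beside 27.0% and 26.0% of all genes. DTL, a ubiquitin ligase subunit of S phase, went from 130, 122 and 133 CPM to 50.1, 53.2 and 48.5 CPM. Replication-dependent histone genes moved the other way, and 33 of 46 rose and none fell (median log2 fold change 0.64). H4C14 went from 218, 276 and 159 CPM to 558, 495 and 547 CPM, and H3C15 from 115, 87.5 and 39.6 CPM to 359, 324 and 418 CPM. The untreated library at 1 h stood between the groups, with a summed histone level of 10720 CPM beside 7247 to 9053 CPM in the treated libraries at 1 h and 11340 to 12120 CPM at 6 h. The 3 h libraries were higher still, at 12240 to 17290 CPM. Histone genes are near-identical copies, so counts of single ones are uncertain, and most of their mRNA lacks a poly(A) tail although the libraries were made from poly(A) RNA. Of 5 structural RNAs without a poly(A) tail, grouped after values were seen, RN7SL1, RPPH1 and RMRP passed as higher and RN7SL2 and RN7SK did not pass (adjusted p = 0.284 and 0.165 in edgeR). RN7SL1 kept its call in 11 of 21 alternatives. The sum of RN7SL1, RN7SL2, RN7SK, RPPH1 and RMRP was 117800 to 139600 CPM at 1 h and 144300 to 181100 CPM at 6 h. Their part in the histone result was not tested. With TSP1 alone 17 and with the 2 antibody treatments alone 13 of the 46 histone genes were called higher.

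Genes of the hypoxia response fell, 13 of 16 with none that rose (median log2 fold change -0.91), beside 27.0% and 26.0% of all genes. BNIP3, a mitophagy receptor, fell 2.91-fold, from 150, 150 and 154 CPM to 50.2, 51.4 and 54.9 CPM. PDK1, the kinase that limits pyruvate entry into mitochondria, went from 76.6, 68.9 and 82.6 CPM to 27.4, 26.2 and 28.7 CPM. VEGFA did not pass (84.6, 86.8 and 82.5 CPM against 80.0, 82.2 and 80.5 CPM). Of 24 genes of sterol synthesis and uptake, 14 rose, and CYP51A1 fell (adjusted p = 0.0475 in edgeR), a call lost without the CD3+CD28 or the CD3+CD28+TSP1 library at either time. SQLE, an oxygen-dependent enzyme of the pathway, went from 60.0, 56.6 and 57.3 CPM to 116, 117 and 116 CPM. Of 9 fatty acid synthesis genes, beside 26.0% higher and 27.0% lower of all genes, 3 rose and 2 fell (ACSS2 and ELOVL5, by 1.31 and 0.78 on the log2 scale). FASN, the fatty acid synthase, rose 3.72-fold, from 26.1, 32.1 and 22.2 CPM to 96.3, 111 and 88.2 CPM. Of 6 sterol export genes, beside the same shares, 3 rose (NR1H3, NR1H2 and SREBF1) and 2 fell. ABCG1, which exports sterol, fell from 51.9, 52.0 and 52.9 CPM to 19.1, 19.3 and 18.3 CPM.

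**Figure D3:**
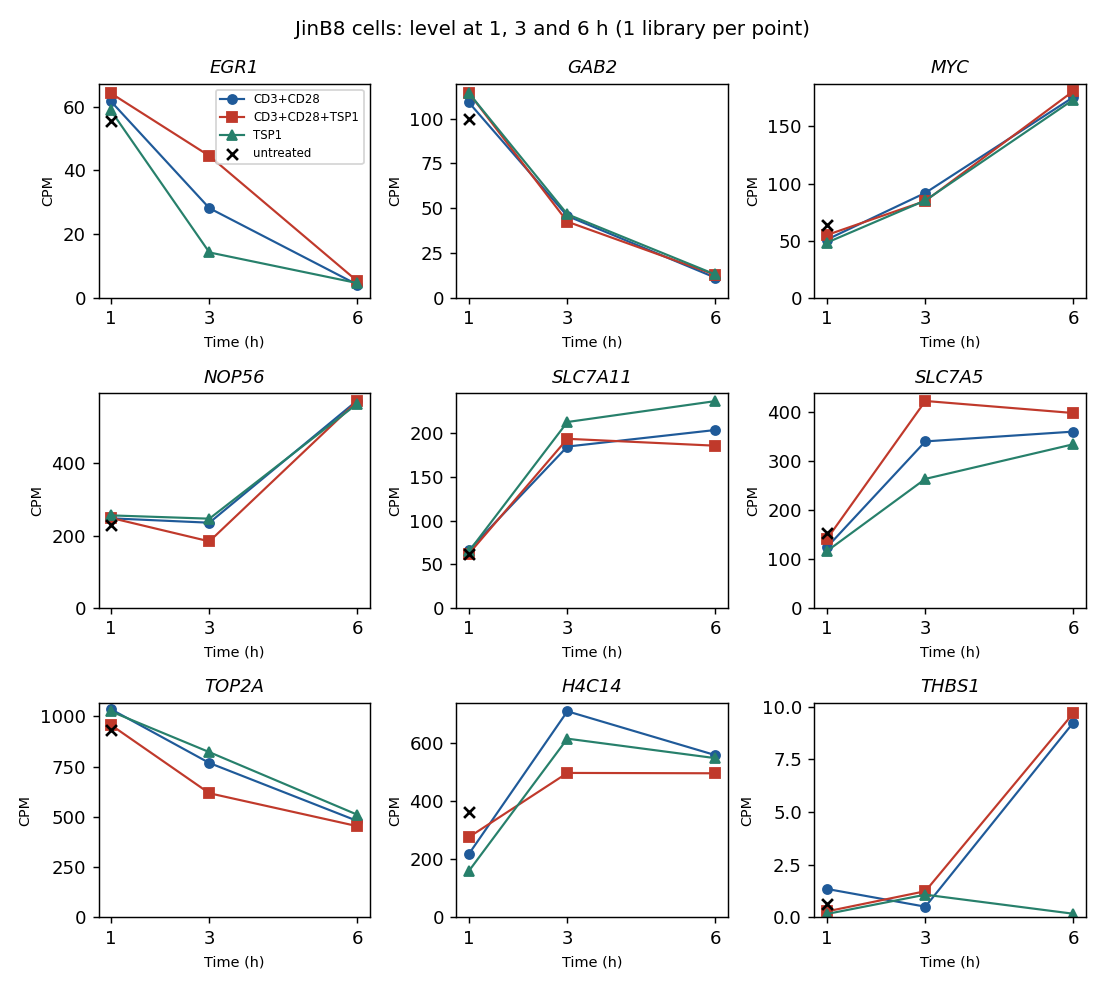
CPM of 9 genes in JinB8 cells at 1, 3 and 6 h, with 1 library per point, lines joining libraries of 1 treatment and a cross for the untreated library at 1 h. EGR1 and GAB2 fall, MYC rises, and THBS1 is high in the CD3+CD28 and CD3+CD28+TSP1 libraries at 6 h alone.

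Whether JinB8 cells changed with time as WT cells did was tested by the difference between their time effects. The difference passed for 2714 of 16327 genes (16.6%), of which 1055 moved more upward in JinB8 and 1659 more downward (38.9% and 61.1%). With upper-quartile factors the counts were 1398 and 1317 (51.5% and 48.5%), and with no filter on low counts 1387 and 1375, so the balance of the directions was not stable. The number also depended on the libraries. With the term for libraries with THBS1 above 5 CPM it fell to 458 upward and 780 downward. Of the 24 genes described for this difference 23 still passed, MYCN being the exception (0.95, edgeR adjusted p = 0.0907). Those 24 were chosen with the same libraries, some by the smallest p in this same test, so their share does not describe genes in general. Without the JinB8 library with CD3+CD28+TSP1 at 3 h the number came to 1742 and 2534. Leaving out 1 of the 6 compared libraries at a time gave 637 to 1094 upward and 820 to 1464 downward. The libraries whose loss moved it over 1.5 times were those with CD3+CD28 at 1 h (637 and 1102), TSP1 at 1 h (677 upward), CD3+CD28 at 6 h (975 downward) and TSP1 at 6 h (638 and 820). In all, 2894 genes rose in both lines (68.3% of the JinB8 list and 69.0% of the WT list) and 2779 fell in both (63% and 68.7%). In WT 25.7% of all genes rose and 24.8% fell. Of the 8646 genes called in JinB8, 1983 (22.9%) differed between the lines. By their calls, 100 rose in JinB8 and fell in WT, and 171 did the reverse.

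The genes with the smallest p for a more upward change in JinB8 included genes of amino acid transport and metabolism. SLC7A11, the cystine transporter, rose in JinB8 from 65.9, 61.8 and 64.5 CPM to 204, 186 and 237 CPM, a 3.25-fold rise, and in WT it went from 66.8 ± 5.59 CPM to 22.1 ± 0.99 CPM (SD, n = 3). The difference in log2 fold change was 3.30 ± 0.12 (SE, adjusted p = 5.16e-09). PSAT1, an enzyme of serine synthesis, rose by 0.54 in JinB8 and fell by 1.23 in WT on the log2 scale. GPT2, a mitochondrial transaminase, went from 13.7, 13.6 and 12.2 CPM to 26.6, 26.3 and 26 CPM in JinB8 and averaged 14.7 CPM at 1 h and 5.18 CPM at 6 h in WT. SLC1A5, a glutamine transporter, and STC2, a secreted glycoprotein of the stress response, differed by 2.01 and 2.27. The heavy and light chains of a large neutral amino acid transporter also differed, SLC3A2 by 1.82 and SLC7A5 by 1.66, as did CHAC1, a glutathione-degrading enzyme, by 2.73.

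Of 24 tested genes of the ATF4 stress response and serine synthesis, a program induced when amino acids run short, 11 rose and 9 fell in JinB8 (beside 26.0% and 27.0% of all genes), while 1 rose and 19 fell in WT (beside 25.7% and 24.8%). The difference passed for 20, beside 16.6% of all genes, with 17 more upward and 3 more downward in JinB8. The members that fell in JinB8 were led by TRIB3 (172, 178 and 163 CPM at 1 h and 56.3, 61.9 and 57.5 CPM at 6 h) and DDIT3, both stress-induced regulators. With the THBS1 term, 17 members differed more upward and 2 more downward.

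Chaperones of the endoplasmic reticulum parted the lines in the opposite way. HSPA5, the chaperone BiP, was at 296, 293 and 275 CPM at 1 h and 241, 256 and 245 CPM at 6 h in JinB8, which did not pass (adjusted p = 0.0759), and in WT it rose from 179 ± 8.40 CPM to 755 ± 59.1 CPM. The difference was -2.29 ± 0.14 (adjusted p = 4.51e-07). HSP90B1, the chaperone GRP94, fell from 598, 564 and 562 CPM to 431, 407 and 441 CPM in JinB8, and in WT it rose from 417 ± 21.5 CPM to 1874 ± 48.3 CPM. XBP1, a transcription factor of the unfolded protein response, differed by -1.96, MANF by -1.98 and SEL1L, a subunit of the degradation machinery, by -1.27. The difference passed for 15 of the 18 genes listed (16.6% of all genes), all more downward in JinB8. In JinB8 4 rose and 6 fell, beside 26.0% and 27.0% of all genes, and in WT 15 rose and 2 fell, beside 25.7% and 24.8%. With the THBS1 term the same number, 15, differed more downward. CD226, an adhesion receptor of T and NK cells and no part of this list, was among the genes with the smallest p: it rose by 0.42 in JinB8, from a mean of 277 CPM, and by 2.12 in WT, from 25.2 CPM.

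The immediate early and mitotic lists differed between the lines as well. Beside 16.6% of all genes, the difference passed for 16 of 23 immediate early factors, all more upward in JinB8 (14 with the THBS1 term). FOSB fell by 4.07 on the log2 scale in WT, from 90.7 ± 23.7 CPM, and was level in JinB8, from 14.2 CPM, a difference of 4.06 ± 0.23 (adjusted p = 2.34e-07). FOS differed by 2.30, ATF3 by 2.37 and NR4A1 by 2.73, and NR4A1 averaged 358 CPM in WT and 61.5 CPM in JinB8 at 1 h, with 11.2 and 11.9 CPM at 6 h. For EGR1 the difference was 0.06 ± 0.43 (adjusted p = 0.947). Of the 30 mitotic genes, 28 differed, all more downward in JinB8 (among them CCNB1, CDC20 and PLK1, which did not pass in JinB8 and rose in WT; 23 with the THBS1 term and 20 without the TSP1 library at 6 h), and the median log2 fold change was -1.03 in JinB8 and -0.28 in WT. DLGAP5 differed by -1.21, CENPF by -1.0 and TOP2A by -0.85. GAB2 fell more in JinB8 (difference -1.01), from a mean of 113 CPM at 1 h beside 49.5 CPM in WT, to like levels at 6 h (12.4 and 10.9 CPM). MYCN, near 0 in WT with 0.883 CPM at 1 h, rose from 8.33 to 13.1 CPM on average in JinB8, a difference of 1.11. FASN differed by 1.64.

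**Figure D4:**
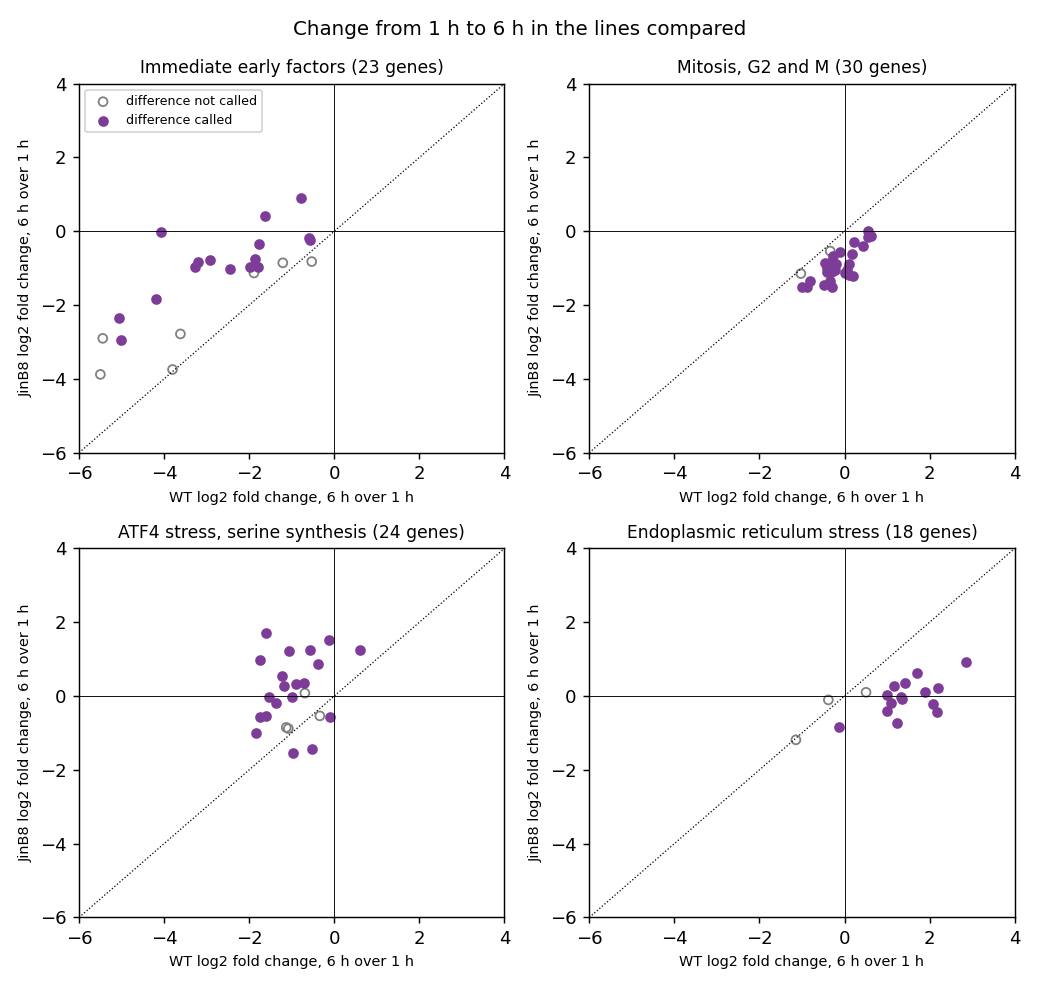
Log2 fold change of 6 h over 1 h in WT cells (horizontal) and JinB8 cells (vertical) for the members of 4 gene lists; filled points passed the test of the difference, and the dotted line marks equal change. Most points of the endoplasmic reticulum list lie below the line (15 of 18 filled, all below) and most of the ATF4 list above it (17 filled above and 3 below).

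The last question was whether the time effect in JinB8 cells differed between cells given CD3 and CD28 antibodies and cells given TSP1 alone. With 1 pair of libraries for TSP1 alone, no gene passed in edgeR (0 of 16327, 0%), and 236 had an unadjusted p under 0.05. With voom in limma 0 passed and 254 had an unadjusted p under 0.05, and with DESeq2 1 gene passed upward and 2 downward. With no filter on low counts edgeR called 23 upward and 49 downward. By smallest p the genes were RGPD5, STX16-NPEPL1 and MAGED4B, more upward with the antibodies, and HBG2, RGPD6 and AC087190.3, more downward. RGPD5 and RGPD6 are near-identical copies, and their counts are uncertain: at 1 h RGPD5 was at 8.96, 19.2 and 36.9 CPM and RGPD6 at 39.2, 28.2 and 14.6 CPM, in opposite order.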

How the data were processed

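Poly(A) RNA of JinB8 and WT Jurkat cells was sequenced as paired reads of 125 bases, and the authors used cutadapt 1.18 for trimming, STAR 2.4.2a for mapping to GRCh38 and RSEM 1.3.3 with GENCODE 36 for quantification, per the methods and the submitters' processing notes. The deposited values are RSEM expected counts per gene, not normalized, and 1 column belongs to each of the 20 samples. The strand setting is not given in the sources used here, so overlapping genes may share reads. A table of isoforms was not used, and 2 columns of another cell line in the gene table were left out.

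Expected counts were rounded and tested in edgeR 4.0.16 (R 4.3.3) with its quasi-likelihood test, TMM factors and Benjamini-Hochberg adjustment over 16327 of 60719 genes, those that reached a count of 10 in enough libraries of a line and 15 in total. The model held a term for each line and treatment and terms for 3 h and 6 h in each line (8 residual degrees of freedom). The test of antibody treatments against TSP1 alone had separate time terms (4 residual degrees of freedom). CPM were computed on TMM-scaled totals. SD is over the 3 treatments and so includes their differences. On data simulated from the fitted model with 16327 genes, 90% of genes changed 2-fold and 70% of those changed 1.5-fold were recovered. The changed genes were drawn from the more highly expressed genes only, so recovery of low genes was not measured. In that simulation 16127 genes were unchanged, so far fewer genes changed than were called in the data.

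Depth limits low genes: 3 counts correspond to 0.119 to 0.132 CPM in the 6 libraries, which covers counting error only. Named genes were the 15 largest changes in each direction with an adjusted p under 0.05, at least 5 CPM and the same sign in all 3 treatments, members of the gene lists, the genes with the smallest p in the tests of difference, and genes of the study. The members and lists were chosen with earlier results of these data known, and the list of structural RNAs after values were seen. Positions are from GENCODE 44, in which 16269 of the tested genes were found, and promoters from RefSeq (GRCh38.p14), of which the first listed per gene was used, matched by symbol for 10698 of 16291 symbols. DESeq2 1.42.0, limma 3.58.1 voom and other filters, scalings, libraries and models were tried as alternatives. The methods name a batch correction without its batches, and none was applied here. A few results are not reported here.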

Additional observations from a re-analysis of the deposited data

Results flagged for a closer look

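The time effect differed between JinB8 and WT cells, by the test of the difference itself, for 1055 genes more upward and 1659 more downward in JinB8. Among the genes described, the differences in log2 fold change (JinB8 minus WT) were as follows. Of immediate early genes, FOS had 2.30, FOSB 4.06, ATF3 2.37 and NR4A1 2.73. For amino acid and stress genes the differences were 3.30 for SLC7A11, 1.77 for PSAT1, 2.51 for GPT2, 2.27 for STC2, 2.01 for SLC1A5, 1.66 for SLC7A5, 1.82 for SLC3A2 and 2.73 for CHAC1. FASN had 1.64 and MYCN 1.11. More downward in JinB8 were HSP90B1 at -2.60, HSPA5 at -2.29, MANF at -1.98, XBP1 at -1.96, CD226 at -1.70, SEL1L at -1.27, DLGAP5 at -1.21, GAB2 at -1.01, CENPF at -1.0 and TOP2A at -0.85. No group had the 4 samples that a check for a sample far from its group needs.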

How the results depend on the processing

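Each of the 30 genes with the largest change kept its direction and its call in every alternative that tested it, 21 for 25 of them and 20 for ATP2B2, TMPRSS13, PRR22, EHD3 and TNFRSF4, which fell below the filter of 1 CPM. They were chosen as large called changes in these same libraries, so this outcome was likely from the choice itself. The numbers of genes called in JinB8 stayed within 1.5 times, except with TSP1 alone (2035 higher and 2152 lower). Leaving out 1 of the 6 libraries gave 3515 to 3992 higher and 3618 to 4082 lower. Libraries paired by treatment share the treatment, and the labels name no shared culture or day. Deviations of libraries of 1 treatment at 1 h and 6 h correlated at 0.157, 0.0442 and 0.0951. With a treatment term in a fit of the 6 libraries (replicate block) 5105 were higher and 4891 lower, and without the block 5042 and 4876. The difference between the lines gave 637 to 1094 genes upward and 820 to 1464 downward with 1 library left out, 458 and 780 with a term for libraries with THBS1 above 5 CPM, 1742 and 2534 without the JinB8 CD3+CD28+TSP1 library at 3 h, and 1809 and 2615 without the 3 h libraries (these 3 alternatives and the GC and length offsets were chosen after seeing the data); the cause was not tested. For antibody treatments against TSP1 alone, DESeq2 called 1 gene upward and 2 downward, no low-count filter 23 and 49, and JinB8 libraries alone 1 and 0.

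Log2 fold changes turned sign for the following genes, and the cause was not tested. With voom VEGFA was 0.0013 and INSIG1 0.013. FOSB was 0.0234 with upper-quartile factors, 0.00405 with at least 1 CPM, 0.0041 with the replicate block, 0.129 with TSP1 alone and -0.0802 to 0.106 with 1 library left out. CCNB1 was -0.00134 with no filter, -0.023 with the antibody treatments and -0.0972 to 0.0785 with 1 library left out. LCK was -0.0116 with the untreated library counted at 1 h, -0.0358 with the antibody treatments, -0.148 with the offsets and -0.0627 to 0.149 with 1 library left out. CD3E was -0.0405 with the offsets and -0.0933 to 0.0986 with 1 library left out. STX16-NPEPL1 was 0.147 and AC087190.3 -0.10 with the antibody treatments, and AC087190.3 was -0.0419 to 0.468 with 1 library left out. RGPD5 was -1.12 and RGPD6 0.305 with TSP1 alone, and RGPD5 was -0.345 to 0.799 with 1 library left out. With the THBS1 term CD3E was -0.00037, LCK -0.0189, CCNB1 -0.0757, RN7SL2 -0.0287 and THBS1 itself -0.87. That term is defined by the level of THBS1, so the value of THBS1 under it cannot be read as a change with time. With the offsets JUNB was -0.033, RN7SL2 -0.0282, SEL1L 0.0412 and CD47 0.0911. Of these genes RGPD6, SEL1L and CD47 had passed as lower in the comparison as reported. Of 3896 single-gene comparisons 3697 kept their direction and side of the threshold, 75 came to pass, 88 no longer passed and 36 turned.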

Other observations

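Other lists of genes were measured in JinB8 cells between 1 h and 6 h. Of 20 heat shock chaperones, 10 rose and 5 fell, beside 26.0% and 27.0% of all genes. HSPA8, the constitutive HSC70 chaperone, rose from 2458, 2414 and 2410 CPM to 4998, 5048 and 5404 CPM. The heat-inducible HSPA1A and HSPA1B, near-identical copies whose counts are uncertain, rose by 1.62 and 1.32 on the log2 scale. DNAJB1, a co-chaperone also induced by heat shock, fell from 1393, 1396 and 1424 CPM to 703.6, 723.1 and 703.5 CPM. Of 25 tested interferon response genes, 4 rose (2 without the CD3+CD28+TSP1 library at 6 h) and 9 fell, beside the same shares of all genes. IRF9, a transcription factor of interferon signaling, fell from 17.9, 16.5 and 16.8 CPM to 4.88, 4.03 and 4.58 CPM, and STAT2 by 0.98 on the log2 scale. In cytokine signaling 11 of 22 genes fell and 4 rose, beside 27.0% and 26.0% of all genes. Among those that rose, IL2RB, a receptor chain for interleukins 2 and 15, went from 1.08, 1.10 and 0.734 CPM to 3.39, 3.87 and 3.79 CPM. JAK3, the kinase of the receptors that share the common gamma chain, rose from 8.72, 9.15 and 8.81 CPM to 24.4, 26.6 and 19.6 CPM.

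Of 20 cytosolic aminoacyl-tRNA synthetases, 11 rose and 3 fell, beside 26.0% and 27.0% of all genes. The 3 became 5 in the fits of the 6 libraries, with or without the replicate block, and without the 3 h libraries. WARS1, which charges tryptophan, rose from 34.8, 32.8 and 37.3 CPM to 92.4, 90.5 and 92.6 CPM, whereas AARS1, which charges alanine, fell by 0.79 on the log2 scale. TFRC, the transferrin receptor, rose from 419.6, 415.4 and 428 CPM to 935.5, 910.3 and 932.5 CPM. SLC30A1, a zinc exporter, fell from 168.1, 164.2 and 178.4 CPM to 63.7, 56.0 and 68.6 CPM. Among 14 tested genes of the NOTCH pathway, 5 rose (3 without the TSP1 library at 6 h) and 3 fell, beside 26.0% and 27.0% of all genes, and DTX1, a NOTCH target, rose from 38.4, 43.9 and 40.5 CPM to 118, 131 and 118 CPM. In each of these named genes the groups did not overlap. Over all genes tested, the 3 libraries at 6 h all lay above those at 1 h for 32.4% and all below for 33.6%.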
